A study of Homo sapiens with 3 samples.

Results

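The receptors and binding proteins of the insulin-like growth factor (IGF) system were followed in 3 libraries of the human hepatocellular carcinoma (HCC) line HCCLM3. The members were chosen by symbol and are IGF1R, IGF2R, INSR and IGFBP1 to IGFBP7, a set of 10 beside the 16149 genes listed in any library. Of the 10 members, 9 had a row in at least 1 table, and 8 reached a mean of at least 1 RPKM (reads per kilobase of transcript, scaled to the total reads of the library) over the 3 libraries, the minimum used for comparisons. IGFBP5 was listed but stayed below that mean, and IGFBP7 had no row in any of the 3 tables and was taken as 0.

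The groups were the HCCLM3 parent, labelled with a low metastasis ability, subclone1, labelled with a higher ability directed to lung, and subclone2, labelled with a dual ability for lung and celiac lymph node. By the study's methods the cells carried red fluorescent protein, the parent itself was described as a line of high metastatic potential, and each subclone was grown from a single cell taken from metastases in nude mice. All 3 were grown in DMEM, with RNA extracted in Trizol, and each group was 1 library, so a difference between groups has no replicate check and cannot be told apart from a difference between cultures or libraries. The totals to which the RPKM were scaled were 4488825 to 4725150 reads per library, as recovered from the steps of the RPKM values. Of each total, 99.8% to 99.9% lay in genes whose reads could be recovered. The totals are therefore close to the reads assigned to genes, and the number of reads sequenced may be larger. The 95% intervals given with levels and ratios come from these reads and cover counting error only.

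IGF1R is a receptor tyrosine kinase at the cell surface that passes the signal of IGF1 and IGF2 to the PI3K-AKT and MAPK pathways. INSR, the insulin receptor, is its closest relative and forms hybrid receptors with it, while IGF2R, the cation-independent mannose 6-phosphate receptor, takes up IGF2 for breakdown in the lysosome. IGFBP1 to IGFBP6 are secreted proteins that bind IGFs with high affinity, carry them and hold them away from IGF1R or release them near it, and several also act on cells without IGF. In the adult, liver is the main source of circulating IGF1, and IGFBP1 is a hepatocyte product that insulin holds down.

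Of the cell-surface receptors, INSR was the one that differed at least 2-fold from the parent. INSR was at 3.69 RPKM in the parent (95% counting interval 3.12 to 4.33), 7.42 RPKM in subclone1 (6.62 to 8.30) and 10.5 RPKM in subclone2 (9.59 to 11.6). The 3 intervals did not overlap, and the level was lowest in the parent and highest in subclone2. The fold over the parent was 2.01 in subclone1 (1.65 to 2.46) and 2.86 in subclone2 (2.37 to 3.46), and subclone2 was 1.42-fold above subclone1 (1.23 to 1.65). Differences were called at 2-fold on log2(RPKM + 0.1), where INSR reached 0.99 in subclone1, just short of the call, and 1.49 in subclone2. Since RNA was taken from whole cultures, fewer cells with a transcript and less of it per cell cannot be told apart.

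IGF1R was at about the same level in the 3 libraries, with 8.74 RPKM in the parent, 9.28 RPKM in subclone1 and 8.06 RPKM in subclone2. Its ratio to the parent was 1.06 in subclone1 (0.931 to 1.21) and 0.922 in subclone2 (0.805 to 1.06), so both intervals held 1. Subclone2 was at 0.868 of the level in subclone1 (0.760 to 0.991), an interval that just missed 1. Per length, INSR was at 0.422 of the IGF1R level in the parent (0.348 to 0.509), 0.800 in subclone1 (0.691 to 0.924) and 1.31 in subclone2 (1.14 to 1.5). IGF1R was therefore the higher of both tyrosine kinase receptors in the parent and subclone1, and INSR in subclone2.

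IGF2R was the receptor with the highest level in every library, at 40.8 RPKM in the parent, 50.6 RPKM in subclone1 and 48.2 RPKM in subclone2. It lay above 88.5% to 91.1% of the 16149 genes listed in any library, with those not listed in the library at hand set to 0. It was 1.24-fold over the parent in subclone1 (1.16 to 1.32) and 1.18-fold in subclone2 (1.11 to 1.26), and the subclones could not be told apart (0.953, 0.896 to 1.01). Its level per length was 4.67 times that of IGF1R in the parent, 5.45 times in subclone1 and 5.98 times in subclone2.

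**Figure D1:**
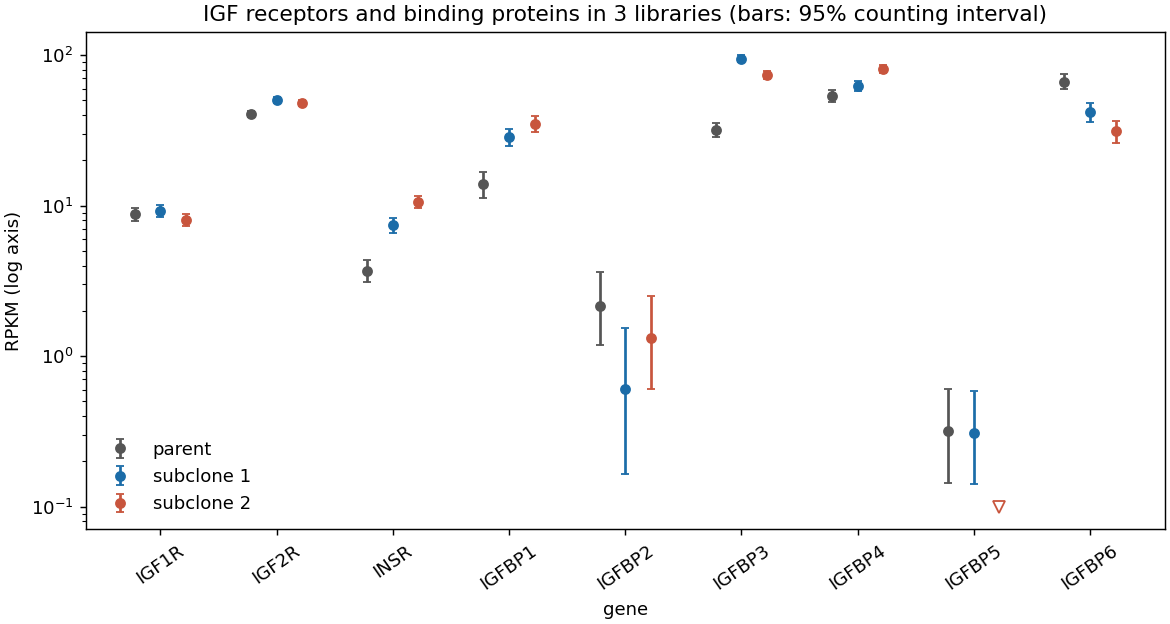
Level of each listed member in RPKM (log axis) in the parent, subclone1 and subclone2, 1 library each, with 95% counting intervals as bars. INSR is at 3.69, 7.42 and 10.5 RPKM and IGFBP6 at 66.6, 41.6 and 31.1 RPKM in that order, while IGF1R stays between 8.06 and 9.28 RPKM.

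The promoters of the 2 tyrosine kinase receptors are shown because IGF1R stayed level where INSR did not. Each is the 250 bases before the start of the RefSeq gene in GRCh38.p14, read 5′ to 3′ on the strand of the gene, with capitals marking a match to a searched motif on either strand.
IGF1R promoter, chr15:98648289-98648538, plus strand: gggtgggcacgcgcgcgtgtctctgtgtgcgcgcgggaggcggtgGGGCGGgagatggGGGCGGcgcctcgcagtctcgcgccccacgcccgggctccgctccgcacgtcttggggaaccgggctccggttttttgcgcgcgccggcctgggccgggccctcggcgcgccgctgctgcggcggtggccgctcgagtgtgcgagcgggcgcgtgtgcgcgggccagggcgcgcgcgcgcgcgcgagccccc
INSR promoter, chr19:7294415-7294664, minus strand: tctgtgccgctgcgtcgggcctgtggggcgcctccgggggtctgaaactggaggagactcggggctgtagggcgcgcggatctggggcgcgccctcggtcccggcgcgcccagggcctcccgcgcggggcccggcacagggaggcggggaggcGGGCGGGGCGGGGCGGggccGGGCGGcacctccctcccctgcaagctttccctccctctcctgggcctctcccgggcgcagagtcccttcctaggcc
Both windows were rich in G and C, 81.2% in IGF1R and 78.4% in INSR, against a median of 58% over 35116 RefSeq windows. The capitals are GC boxes (GGGCGG), the letters bound by SP1-type factors, with first bases at -205 and -192 in IGF1R and at -97, -92, -87 and -77 in INSR, counted back from the start, and neighbours among the first 3 of INSR share a base. Of all windows, 42.6% held a GC box, and neither receptor held a TATA box (TATAAA or TATATA, 12.8% of windows), a CCAAT box (CCAAT, 32%), a FOXO site (GTAAACA, 2.98%) or an insulin response element (CAAAACA, 4.3%).

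Among the binding proteins, IGFBP1, IGFBP3 and IGFBP4 were higher and IGFBP6 was lower in both subclones than in the parent, beyond counting error. IGFBP3, the main carrier of IGFs in blood, was at 31.9 RPKM in the parent (28.8 to 35.3), 94.8 RPKM in subclone1 (89.4 to 100.5) and 73.6 RPKM in subclone2 (69.0 to 78.6). Subclone1 was 2.97-fold (2.64 to 3.35) and subclone2 2.31-fold (2.04 to 2.61) over the parent, both past the 2-fold call. Unlike INSR, IGFBP3 was highest in subclone1, with subclone2 at 0.777 of that level (0.711 to 0.848).

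IGFBP1, the hepatocyte product, was at 13.8 RPKM in the parent (11.3 to 16.8), 28.5 RPKM in subclone1 (24.8 to 32.5) and 34.9 RPKM in subclone2 (30.9 to 39.3). It was 2.06-fold over the parent in subclone1 (1.62 to 2.63) and 2.53-fold in subclone2 (2.01 to 3.20), called in both. The call in subclone1 was lost with a pseudocount of 1 (log2 0.99) and with scaling to ACTB (0.91). The subclones were closer to each other, with subclone2 1.23-fold higher (1.02 to 1.47). The summed level of hepatocyte markers was also higher in the subclones, at 54.6 RPKM in the parent, 149 RPKM in subclone1 and 139 RPKM in subclone2, much of it from ALB, serum albumin, at 2.46, 49.5 and 68.8 RPKM. The markers did not move as 1 group: of the 7 past the filter, 4 were called higher in subclone1 and 3 in subclone2. TF, transferrin, was at 5.71, 30.3 and 5.88 RPKM, FGB, a fibrinogen chain, at 1.66, 14.5 and 5.60 RPKM, and HNF4A, a liver transcription factor, at 11.7, 11.9 and 16.0 RPKM, so TF and FGB were lower in subclone2 than in subclone1. Of the 10 hepatocyte markers, 9 were listed in the parent, 9 in subclone1 and 10 in subclone2, with TTR, transthyretin, at 0 in the first 2. Their part in the IGFBP1 result was not tested.

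IGFBP6, which prefers IGF2 over IGF1, went the other way. It was at 66.6 RPKM in the parent (59.2 to 74.7), 41.6 RPKM in subclone1 (35.9 to 48.0) and 31.1 RPKM in subclone2 (26.2 to 36.6). The parent was 1.60 times the level of subclone1 and 2.14 times that of subclone2, so that the ratio to the parent was 0.625 (0.517 to 0.753) and 0.467 (0.380 to 0.572), and subclone2 alone was called lower. Subclone2 was at 0.747 of subclone1 (0.597 to 0.933).

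IGFBP4, an inhibitor of IGF action that proteases cut to free the ligand, was at 53.6 RPKM in the parent, 62.4 RPKM in subclone1 and 80.8 RPKM in subclone2. Its fold over the parent was 1.16 (1.04 to 1.31) and 1.51 (1.35 to 1.68), and subclone2 was 1.30-fold over subclone1 (1.17 to 1.44). These intervals left out 1, but no IGFBP4 difference reached 2-fold. Scaled to ACTB, the log2 ratio of IGFBP4 in subclone1 to the parent went from 0.22 to 0.088, so this small difference depends on the scaling.

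IGFBP2 and IGFBP5 were at the bottom of the range, with few reads. IGFBP2, a binding protein raised in many tumours, had 14 reads in the parent (2.17 RPKM), 4 in subclone1 (0.603 RPKM) and 9 in subclone2 (1.32 RPKM). Subclone1 was at 0.278 of the parent (0.0667 to 0.886) and was called lower, whereas the intervals of subclone2 against the parent (0.611, 0.233 to 1.51) and against subclone1 (2.20, 0.613 to 9.75) held 1. The call in subclone1 was lost with a pseudocount of 1 (log2 -0.98). IGFBP2 passed the filter mainly through the parent library, where it was highest. IGFBP5, a binding protein that attaches to matrix, had 9 reads in the parent (0.317 RPKM), 9 in subclone1 (0.308 RPKM) and was not listed in subclone2. A count of 0 allows up to 0.10 RPKM there, 3 reads in that library, a limit 3.16-fold under the value in the parent and 3.08-fold under that in subclone1. The exact interval of the ratio, which also covers the counting error of the 9 reads, reaches down to a difference of 2.08-fold from the parent and 2.02-fold from subclone1. For IGFBP7, which binds IGFs weakly, 0 reads would allow up to 0.534, 0.520 and 0.508 RPKM in the parent, subclone1 and subclone2 for a transcript of 1251 bases, if the gene was counted in these tables at all.

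**Figure D2:**
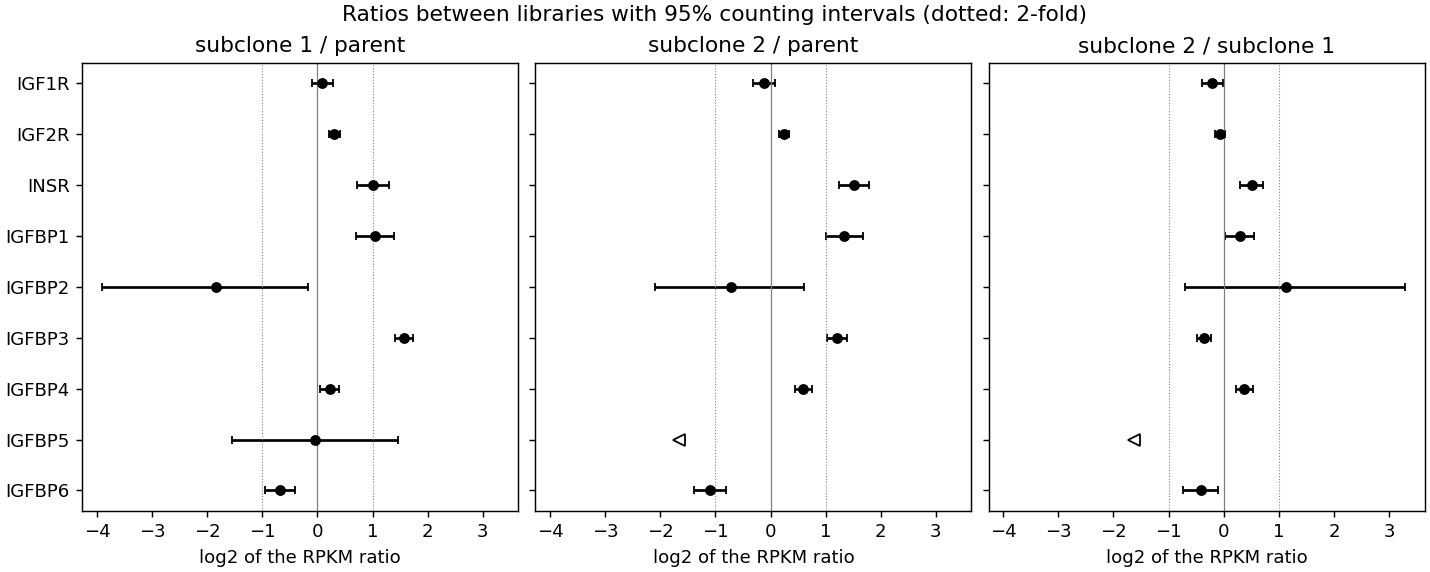
Log2 of the RPKM ratio between libraries for each listed member, with 95% counting intervals and dotted lines at 2-fold. Open triangles mark IGFBP5 in subclone2, which was not listed there, at the limit of 3 reads, 3.16-fold under the parent's value and 3.08-fold under that of subclone1, without the counting error of the 9 reads in those libraries.

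The promoters of IGFBP3 and IGFBP6 are shown as the binding proteins with the largest called difference in each direction among those above 10 RPKM in every library. IGFBP1 and IGFBP7 had no entry in the promoter table. The windows have the same 250-base form as those of the receptors.
IGFBP3 promoter, chr7:45921273-45921522, minus strand: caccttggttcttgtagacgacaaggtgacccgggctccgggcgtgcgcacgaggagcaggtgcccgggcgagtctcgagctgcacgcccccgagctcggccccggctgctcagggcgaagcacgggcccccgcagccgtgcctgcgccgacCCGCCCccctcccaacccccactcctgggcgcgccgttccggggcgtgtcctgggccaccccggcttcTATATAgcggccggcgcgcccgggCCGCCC
IGFBP6 promoter, chr12:53097417-53097666, plus strand: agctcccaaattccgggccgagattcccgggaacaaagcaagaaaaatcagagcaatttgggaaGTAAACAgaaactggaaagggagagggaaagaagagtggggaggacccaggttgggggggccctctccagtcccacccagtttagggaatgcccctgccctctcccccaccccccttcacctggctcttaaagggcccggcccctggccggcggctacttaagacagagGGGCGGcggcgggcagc
IGFBP3 had a TATA box with its first base at -30 and GC boxes at -98 and -6, in a window of 76% G and C. IGFBP6 had a FOXO site at -186 and a GC box at -17, in a window of 61.2% G and C. IGFBP4 was the other member with a TATA box, at -29. A match of letters describes the window and does not show that a factor binds there.

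The mix of binding proteins differed between the libraries, with IGFBP6 leading in the parent, IGFBP3 in subclone1, and IGFBP4 and IGFBP3 in subclone2. The summed level of IGFBP1 to IGFBP6 was 168 RPKM in the parent, 228 RPKM in subclone1 and 222 RPKM in subclone2, 1.36-fold and 1.32-fold over the parent. IGFBP6 made up 39.6% of that sum in the parent, 18.2% in subclone1 and 14.0% in subclone2. IGFBP3 made up 19.0%, 41.5% and 33.2%, and IGFBP1 made up 8.21%, 12.5% and 15.7%, in the same order. IGFBP4 held 31.8%, 27.3% and 36.4%. Per length, IGFBP3 was at 0.479 of IGFBP6 in the parent (0.410 to 0.560), but 2.28 times IGFBP6 in subclone1 (1.95 to 2.67) and 2.37 times in subclone2 (1.98 to 2.84). These shares are of transcripts and not of secreted protein.

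**Figure D3:**
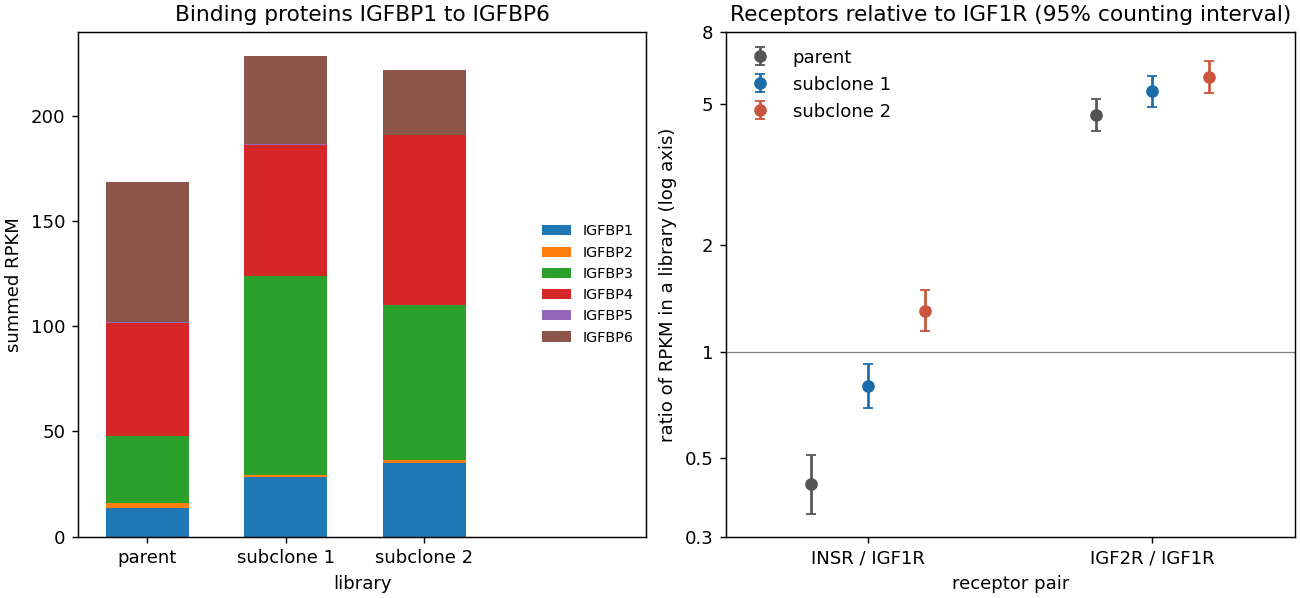
Left, summed level of IGFBP1 to IGFBP6 in RPKM, stacked by gene, in the parent, subclone1 and subclone2, with IGFBP6 the largest layer in the parent (39.6% of 168 RPKM), IGFBP3 in subclone1 (41.5% of 228 RPKM) and IGFBP4 in subclone2 (36.4% of 222 RPKM). Right, ratio of the RPKM of INSR and of IGF2R to that of IGF1R within each library (log axis) with 95% counting intervals, where INSR crosses from 0.422 in the parent to 1.31 in subclone2.

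The order of the members by level differed at its top. In the parent it ran IGFBP6, IGFBP4, IGF2R, IGFBP3, IGFBP1, IGF1R, INSR, IGFBP2 and IGFBP5, and every neighbour differed beyond counting error except INSR and IGFBP2 (1.70, 0.983 to 3.19). In subclone1 IGFBP3 led, followed by IGFBP4, IGF2R, IGFBP6, IGFBP1, IGF1R, INSR, IGFBP2 and IGFBP5, with the last 2 not told apart (1.96, 0.440 to 7.01). In subclone2 IGFBP4 and IGFBP3 shared the top within counting error (1.10, 0.999 to 1.21), IGF2R followed, IGFBP1 and IGFBP6 could not be told apart (1.12, 0.915 to 1.38), and INSR, IGF1R and IGFBP2 closed the order.

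Against all genes, the members were called as follows. Of the 8 members past the filter, 2 were at least 2-fold higher in subclone1 than in the parent (IGFBP1 and IGFBP3), where 4.9% of 11370 genes were, and 1 was at least 2-fold lower (IGFBP2), where 1.82% of genes were. In subclone2 against the parent, 3 were higher (INSR, IGFBP1 and IGFBP3) beside 5.33% of all genes, and 1 was lower (IGFBP6) beside 2.16%. Between the subclones, 1 was called higher in subclone2 (IGFBP2, on 9 against 4 reads) beside 1.42% of all genes, and 0 were called lower beside 1.39%. The median log2 ratio of the 8 was 0.26, 0.42 and 0.11 in these 3 comparisons, and that of all genes was 0.0043, 0.037 and 0.034. Both comparisons with the parent use the same parent library, so they are not independent. Scaled to ACTB, the calls over all genes were 449 higher and 328 lower in subclone1 against the parent, in place of 557 and 207, and 219 higher and 123 lower in subclone2 against subclone1, in place of 161 and 158.

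**Figure D4:**
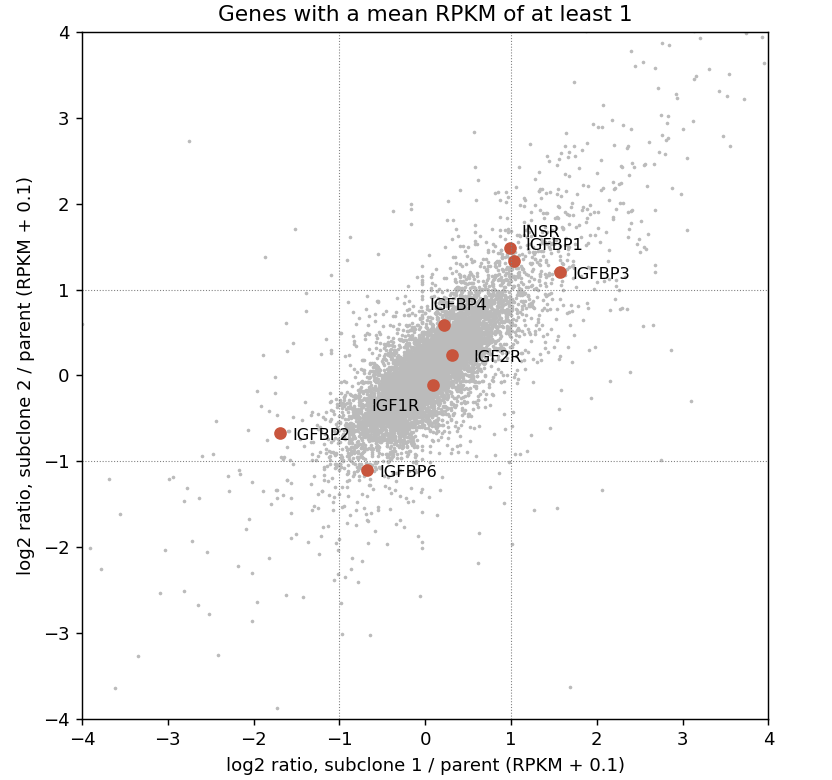
Log2 ratio of RPKM + 0.1 to the parent in subclone1 (horizontal) and subclone2 (vertical) for the 11370 genes with a mean of at least 1 RPKM, members in red, dotted lines at 2-fold. INSR, IGFBP1 and IGFBP3 lie at the upper right and IGFBP6 and IGFBP2 at the lower left, both axes share the parent library, and 64 genes lie outside the axes.

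IGFBP1 and IGFBP3 are adjacent on chromosome 7. The nearest listed gene beyond IGFBP3, TNS3, with 17 unlisted genes between, was also higher in both subclones. TNS3, which encodes a focal adhesion protein of the tensin family, was at 24.1 RPKM in the parent, 46.5 RPKM in subclone1 and 38.6 RPKM in subclone2, 1.93-fold (1.78 to 2.10) and 1.60-fold (1.47 to 1.75) over the parent. On the other side lay the pseudogene SEPT7P2 at 1.97, 3.06 and 3.46 RPKM, whose reads may be shared with its parent gene and whose ratios to the parent library had intervals that held 1. Of the other members with a called difference, INSR lay between ZNF557 (2.52, 1.95 and 1.76 RPKM) and ARHGEF18 (5.48, 7.55 and 5.98 RPKM) on chromosome 19. IGFBP6 lay between SPRYD3 (15.3, 18.8 and 18.3 RPKM) and CSAD (1.32, 1.60 and 0.937 RPKM) on chromosome 12. IGFBP2 and IGFBP5 are adjacent on chromosome 2, and the nearest listed gene on the other side of IGFBP2 was the ribosomal protein gene RPL37A (473, 472 and 400 RPKM). Unlisted genes lay between here too: 10 before SEPT7P2, 1 on each side of INSR, 6 before CSAD and 7 before RPL37A. None of these neighbouring genes outside the family was called in any comparison.

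Few reads of the ligands were listed. IGF2 and INS had no row, and whether these genes were counted in the tables is not known. IGF1 had 1 read in subclone1, 1 in subclone2 and was not listed in the parent, and IGFALS, the third subunit of the circulating complex with IGF and IGFBP3, had 2 reads in subclone1 only. IGF in the culture medium was not measured by these libraries.

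The other genes of the pathway were taken from lists of 86 genes, of which 78 were listed and 67 passed the filter. Of the 67, 9 were called higher and 3 lower in subclone1 than in the parent, beside 4.9% and 1.82% of all genes. In subclone2 against the parent 6 were higher and 5 lower, beside 5.33% and 2.16%, and in subclone2 against subclone1 1 was higher and 5 lower, beside 1.42% and 1.39%. Their median log2 ratio was 0.16, 0.17 and -0.049.

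Among the 8 proteases that cut binding proteins and their inhibitors, 5 passed the filter. Of these, 1 was called higher and 1 lower in subclone1 than in the parent, beside 4.9% and 1.82% of all genes. In subclone2, 1 was higher and 2 lower than in the parent, beside 5.33% and 2.16%. ADAM28, a metalloprotease that can cut IGFBP3, was at 2.91 RPKM in the parent, 8.89 RPKM in subclone1 and 12.8 RPKM in subclone2, 3.06-fold (2.39 to 3.96) and 4.39-fold (3.46 to 5.62) over the parent. HTRA1, a secreted serine protease that can cut IGFBP5, was at 3.33 RPKM in the parent, 1.22 RPKM in subclone1 and 0.0990 RPKM in subclone2, on 32, 12 and 1 reads. The HTRA1 ratio to the parent was 0.365 in subclone1 (0.171 to 0.728) and 0.0297 in subclone2 (0.00073 to 0.178). HTRA1 passed the filter through the parent library, where it was highest, so its lower calls against the parent depend on that value. ADAM12, which can cut IGFBP3 and IGFBP5, was at 2.85, 2.71 and 1.29 RPKM, and subclone2 was called lower than both other libraries.

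Of the 13 other genes with an IGFBP-like domain, 8 passed the filter. In subclone1, 1 was called higher and 2 lower than in the parent, beside 4.9% and 1.82% of all genes. In subclone2, 0 were higher and 2 lower, beside 5.33% and 2.16%. HTRA1 counts here too, with the same limit. WISP1, a matricellular protein of the CCN family, was at 4.89 RPKM in the parent, 2.30 RPKM in subclone1 and 0.856 RPKM in subclone2. Its ratio to the parent was 0.470 (0.334 to 0.654) and 0.175 (0.104 to 0.280). HTRA3, a relative of HTRA1, was high in subclone1, at 2.58, 10.5 and 3.27 RPKM in the parent, subclone1 and subclone2.

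Of the 9 related receptors and binding protein partners, 8 passed the filter. In subclone1, 3 were called higher than in the parent, beside 4.9% of all genes. In subclone2, 1 was higher and 1 lower, beside 5.33% and 2.16%. LRP1, an endocytic receptor that binds IGFBP3 among many ligands, was at 16.2 RPKM in the parent, 35.4 RPKM in subclone1 and 39.4 RPKM in subclone2, 2.18-fold (2.03 to 2.35) and 2.43-fold (2.26 to 2.61) over the parent. ITGA5, a subunit of the integrin to which IGFBP1 binds, was at 40.0, 80.9 and 57.2 RPKM, 2.02-fold (1.85 to 2.21) and 1.43-fold (1.31 to 1.57) over the parent. ITGB3, a subunit of the vitronectin receptor, was at 0.819, 2.57 and 0.216 RPKM on 18, 58 and 5 reads, so it was above the parent in subclone1 and below it in subclone2. ITGB3 passed the filter through subclone1, where it was highest. Scaled to ACTB, LRP1 and ITGA5 in subclone1 fell short of 2-fold (log2 0.99 and 0.88).

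Downstream of the receptors, 10 of 12 adaptor genes, 23 of 23 genes of the PI3K-AKT-FOXO pathway and 11 of 15 FOXO target genes passed the filter. Of the 10 adaptors, 0 were called higher and 1 lower than the parent in each subclone. Of all genes, 1.82% were called lower in subclone1 and 2.16% in subclone2. Of the adaptors, SOCS2, a suppressor of growth hormone signalling, was called lower in both subclones, at 11.5 RPKM in the parent, 1.77 RPKM in subclone1 and 4.21 RPKM in subclone2, and higher in subclone2 than in subclone1 (2.38, 1.06 to 5.88). The transcription factor FOXO4 was called higher in both, at 1.39 RPKM in the parent, 3.48 RPKM in subclone1 and 2.89 RPKM in subclone2. Of the FOXO targets, TXNIP, an inhibitor of thioredoxin and glucose uptake, was at 1.96, 8.52 and 15.3 RPKM, 4.34-fold (2.82 to 6.93) and 7.78-fold (5.17 to 12.2) over the parent. PDK4, a kinase that holds back pyruvate oxidation, was at 0.420, 2.05 and 2.22 RPKM on 7, 35 and 39 reads. PDK4 passed the filter through the subclones, where it was higher, so its higher calls against the parent depend on those values. TXNIP and PDK4 were the 2 of 11 FOXO targets called higher in each subclone, beside 4.9% and 5.33% of all genes, and 0 were called lower. The median log2 ratio of the 11 to the parent was 0.23 in subclone1 and 0.27 in subclone2, with 8 above 0 in each. The IGF2 mRNA-binding proteins, which bind IGF2 and other transcripts, had no called gene among 3, with IGF2BP3 at 41.6, 47.3 and 45.1 RPKM and IGF2BP2 at 14.4, 21.5 and 21.0 RPKM.

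**Figure D5:**
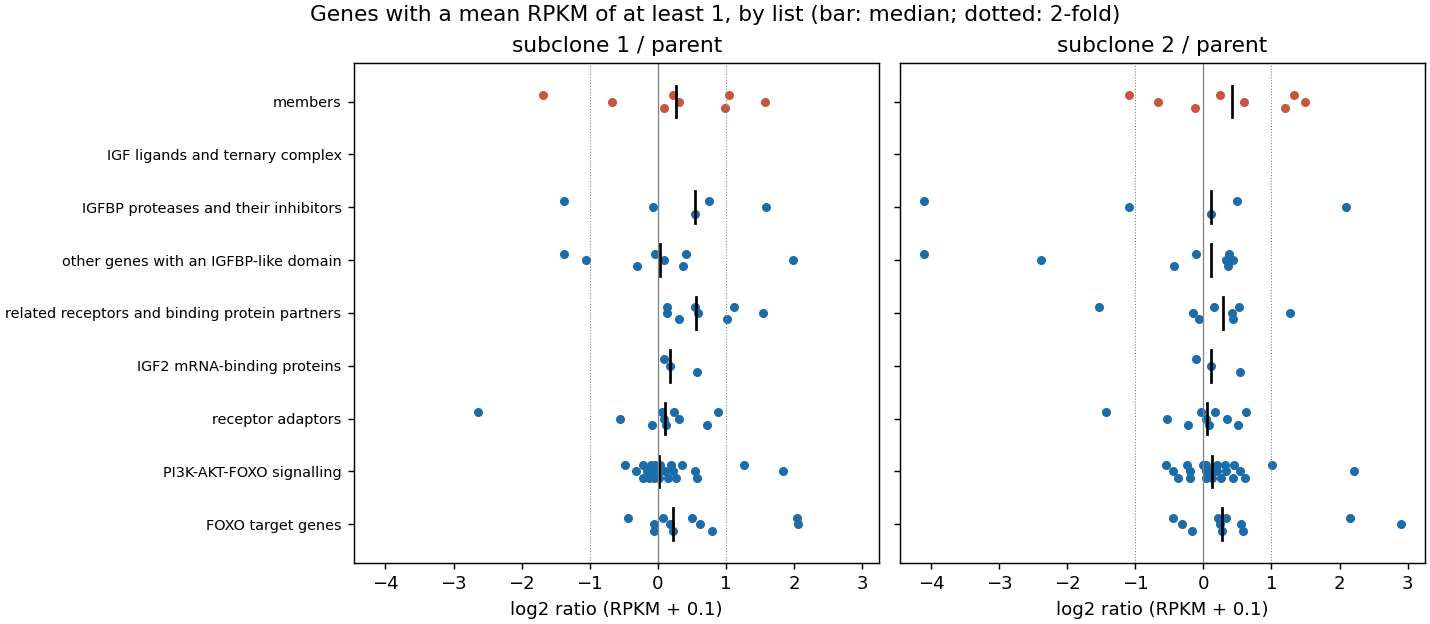
Log2 ratio of RPKM + 0.1 to the parent for members and pathway lists, 1 point per gene with a mean of at least 1 RPKM, a bar at the median and dotted lines at 2-fold. No gene of the ligand list passed that mean, and the members range from -1.69 to 1.57 in subclone1 and from -1.10 to 1.49 in subclone2.

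The labelled cell type was checked on marker lists. The keratins KRT8 (1614, 1641 and 1742 RPKM) and KRT18 (953, 1075 and 1048 RPKM) were high in the parent, subclone1 and subclone2, and the 5 epithelial markers summed to 2747 to 3032 RPKM. CDH1, the epithelial cadherin, was at 2.08, 8.97 and 12.3 RPKM and was called higher in both subclones, and the epithelial marker EPCAM had 1 to 3 reads per library. Among 10 hepatocyte markers APOH, an apolipoprotein, was at 30.0, 36.6 and 33.6 RPKM, while SERPINA1 (0.0631, 0.246 and 0.0599 RPKM) and APOA1 (0.248, 0.726 and 0.472 RPKM), both abundant products of liver, had 1 to 4 reads. CDH1, EPCAM, TF, FGB, APOB, AFP, HNF4A, SERPINA1, APOA1, COL3A1 and DCN were named after their values were seen. Of 10 fibroblast markers, 6, 7 and 6 were listed and summed to 28.7, 37.8 and 28.8 RPKM, mostly LUM (10.1, 24.0 and 21.0) and COL6A3 (13.0, 6.67 and 4.45). PDGFRA, PDGFRB and ACTA2 were at 0 in each library. COL3A1 was at 4.42, 2.21 and 0.463 RPKM and DCN at 0.773, 4.42 and 2.75 RPKM. Of the 4 past the filter, 2 were called higher and 0 lower in subclone1 than the parent, beside 4.9% and 1.82% of all genes. In subclone2, 2 were higher and 2 lower, beside 5.33% and 2.16%. DCN passed the filter through the subclones, where it was higher. Endothelial markers summed to 5.11, 11.9 and 7.60 RPKM, mostly PECAM1 (3.33, 9.81 and 4.46) and KDR (1.36, 1.93 and 3.08), with CDH5 at 0 in the parent and subclone2. Leukocyte markers summed to 1.36, 2.05 and 1.5 RPKM, with LYZ at 1.03, 1.00 and 1.40 RPKM, CD14 at 0.134, 1.04 and 0 RPKM, and CD3E at 0 in each library. The part of these markers in the members' results was not tested.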

How the data were processed

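RNA of 1 culture each of the HCCLM3 parent, subclone1 and subclone2 was sequenced from Illumina TruSeq libraries. The authors deposited 1 table of RPKM per library, listing genes above 0, on the build hg19 per the submitters' processing notes; aligner, counter and annotation are not given in the sources used here. A gene missing from a table was set to 0.

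Ratios were taken as log2(RPKM + 0.1), which understates changes of low genes, for genes with a mean of at least 1 RPKM, and called at 2-fold. With 1 library per group no test was made and no p-value is given. Folds with intervals are plain RPKM ratios. Reads were recovered from the RPKM steps: in the parent, 85.2% of the 1000 lowest genes lay on a common step, and 626 and 596 genes whose reads equalled those of the parent gave the subclones' totals. Gene lengths were then matched to GENCODE 29 transcripts within 10%. Where no length fitted, the shortest between 0.6 times the shortest and 1.5 times the longest transcript was taken. Both steps together resolved 98.0% of the 11370 genes. This length rule was revised after values were seen, and the members' reads were the same under each rule. Where all reads of a gene share a divisor, they can be misstated. Intervals are exact (Poisson for levels, Clopper-Pearson for ratios), at 95%, and cover counting error only, since reads without molecular identifiers are not independent molecules. The floor for a count of 0 was 3 reads per library.

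Named were all members, each pathway gene past the filter and called in any comparison (in a list without one, the 2 highest), all ligands, the nearest listed neighbours of called members, and the 2 highest markers per list; a result that this rule would name is not reported here. Members, lists and rules were chosen with earlier results of these data known, and motifs after the sequences were seen. Promoters and gene order came from RefSeq (GRCh38.p14), where 8 of 10 members matched a promoter. Python 3.11.15, pandas 2.3.3 and scipy 1.17.1 were used, and the recovery was tested on simulated data. Alternatives were other pseudocounts, filters, scalings and a 1.5-fold call.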

Additional observations from a re-analysis of the deposited data

Results flagged for a closer look

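ITGB3, a partner gene and no member of the family, moved in opposite directions in the subclones: its log2 ratio of RPKM + 0.1 to the parent was 1.54 in subclone1 and -1.54 in subclone2, with 18 reads in the parent, 58 in subclone1 and 5 in subclone2. ITGB3 passed the filter on low values through subclone1, where it was highest (0.819, 2.57 and 0.216 RPKM in the parent, subclone1 and subclone2). With a pseudocount of 1 neither ratio reached 2-fold (0.97 and -0.58). With 1 library per group this difference was not tested.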

How the results depend on the processing

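No paired analysis was possible because each group was 1 library. Leaving out a library would remove a whole group and was not run. For the members, 131 of 135 log2 ratios under 5 other pseudocounts or scalings stayed within the counting interval or close to the main value. The other 4 left it, and for the other named genes these numbers were 492 of 510 and 18. Where a count was 0 the interval was open, so a ratio could not leave it on that side. IGFBP5 in subclone2 over the parent counts as within, though it went from -2.06 to -5.03 with a pseudocount of 0.01. IGF1R in subclone1 over the parent ran from -0.045 to 0.10 and IGF2R in subclone2 over subclone1 from -0.12 to 0.055, both changing sign when scaled to ACTB. INSR in subclone1 ran from 0.85 to 1.01 and IGFBP1 there from 0.91 to 1.05, so their calls at 2-fold turned with the setting. With a pseudocount of 1, ADAM12, FOXO4, ITGA5, ITGB3 and WISP1 each lost at least 1 call against the parent, as did HTRA1 in subclone1, and FOXO4 in subclone2 also fell to 0.97 with centring on the median or the upper quartile.

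Counts are given for subclone1 over the parent, subclone2 over the parent and subclone2 over subclone1 in turn. All genes called numbered 764, 852 and 319, against 464, 530 and 157 with a pseudocount of 1, 2407, 2494 and 1744 with no filter, 304, 346 and 89 with a mean of at least 5 RPKM, and 2165, 2274 and 1007 at 1.5-fold. Members called numbered 3, 4 and 1. The first became 1 with a pseudocount of 1 and 5 at 1.5-fold; the last became 0 with a pseudocount of 1, centring on the median, the upper quartile or a mean of at least 5 RPKM, and 2 with no filter, where IGFBP5 entered. Pathway genes called numbered 12, 11 and 6; they became 6 and 3 in the first and last with a pseudocount of 1, and 6, 4 and 2 with a mean of at least 5 RPKM. Scaling to ACTB put the median of all genes at -0.13 in subclone1 over the parent and 0.16 in subclone2 over subclone1, and took the log2 ratio of summed IGFBP1 to IGFBP6 from 0.44 to 0.31 and from -0.041 to 0.084. The few reads of IGFBP2 and IGFBP5 limit what can be said of them.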
